A study of Mus musculus with 4 samples.

Results

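The nuclear genes of the mitochondrial respiratory chain and ATP synthase were followed in mouse embryonic stem (ES) cells and in neurospheres. They were taken as every gene whose symbol begins with Nduf, Sdha to Sdhd, Uqcr, Cox followed by a digit, or Atp5, where the platform annotation gives a probe set that symbol alone. This gave 78 genes out of 8251 named genes on the array, measured by 106 probe sets. Where a gene had several, the brightest by mean log2 signal over the 4 arrays stood for it. By complex, there were 29 genes of complex I, 4 of complex II, 7 of complex III, 14 of complex IV and 14 of complex V. The remaining 10 were assembly factors or regulators, which the name rule also collects and which are kept apart below.

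Total RNA was hybridised to Affymetrix MG_U74Av2 arrays, 1 sample to an array. The neurosphere array came from cultures of the telencephalon, the front part of the embryonic brain, at E13.5 (embryonic day), kept in DMEM/F12 medium with FGF2. The labels list astrocytes, glia and oligodendrocytes as cells that contaminate this sample, and no strain or genotype is stated. The other 3 arrays held R1 cells, an established mouse ES line from the inner cell mass, all in DMEM with LIF, a cytokine that holds ES cells undifferentiated, and beta-mercaptoethanol. Of these, 2 were embryoid bodies, unattached clusters kept for 48 hours and titled aggregation and suspension, and 1 was R1 cells on gelatin, called adherent here. The embryoid body arrays carry the same sample identifier in the labels and were treated as replicates. Neurospheres and adherent cells had 1 array each, and this small number of arrays sets the precision of all values.

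Oxidative phosphorylation passes electrons from NADH (complex I) or succinate (complex II) through ubiquinone to complex III, cytochrome c and complex IV, where oxygen is reduced. Complexes I, III and IV pump protons across the inner mitochondrial membrane, and complex V, the ATP synthase, uses the returning protons to make ATP. Each complex joins catalytic core subunits to many small accessory subunits. In pluripotent cells glycolysis supplies much of the ATP, and the differentiating brain relies heavily on the respiratory chain.

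The deposited signals were scaled so that every array had a trimmed mean of 500, and differences are log2 differences of the scaled signal plus 32. Scaled medians were 242 in neurospheres, 225 and 236 in embryoid bodies and 178 in adherent cells. Of 8 markers of neural progenitors, 5 rose in neurospheres, with a summed signal of 54521 against 1976 and 1639 in embryoid bodies and 1175 in adherent cells. Fabp7 alone gave 41867 of the neurosphere sum, and Msi1 lay within the R1 range. Over all features tested by limma, as described below, 8.2% rose and 11.9% fell. All 8 pluripotency markers fell in neurospheres, with a summed signal of 1856 against 60422, 68528 and 58876 in the same R1 arrays. Of 6 astrocyte markers, 5 were tested and Aldoc and Mt3 rose. The list summed to 18107 in neurospheres against 1671, 1884 and 1215, and Mt3 and Aldoc gave 12719 and 4279 of the neurosphere sum. Of 5 oligodendrocyte markers, Mog and Cnp were not tested, and of the 3 tested Sox10 alone rose. The list summed to 2204 against 1504, 1413 and 698. 4 of these 5 were above all R1 arrays. Mbp had 409 in neurospheres, 351 and 171 in embryoid bodies and 103 in adherent cells, Mog had 161 in neurospheres, 39.9 and 41.6 in embryoid bodies and 16.7 in adherent cells, and Mag at 188 lay within the R1 range. Of 7 neuronal markers, 4 were tested, of which Gap43 rose and Stmn2 fell. The sums over all 7 were 7911 in neurospheres, 6771 and 6730 in embryoid bodies and 4952 in adherent cells. What these cells contribute to the differences below was not tested. In RNA from a whole culture, fewer cells of a type and less RNA per cell cannot be told apart.

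The promoters of the gene with the largest called rise in each complex are shown, as the leading example of each. Each line gives the 250 bases before the RefSeq start of the gene on build GRCm38.p6, 5′ to 3′ on the strand of the gene. Capitals mark matches to the NRF1 core GCGCANGCG or the ETS core CCGGAAG, on either strand. NRF1 and the ETS factor GABP are known regulators of nuclear genes for respiratory subunits. Ndufa3 lies at chr7:3617123-3617372 on the plus strand. On the minus strand lie Sdhd at chr9:50603850-50604099, Uqcr11 at chr10:80406822-80407071, Cox7a2 at chr9:79759854-79760103 and Atp5e at chr2:174464102-174464351.
Ndufa3: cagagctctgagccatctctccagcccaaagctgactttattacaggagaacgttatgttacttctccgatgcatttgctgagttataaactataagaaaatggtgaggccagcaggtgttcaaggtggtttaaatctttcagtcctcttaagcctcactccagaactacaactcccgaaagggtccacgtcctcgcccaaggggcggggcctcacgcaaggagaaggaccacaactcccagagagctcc
Sdhd: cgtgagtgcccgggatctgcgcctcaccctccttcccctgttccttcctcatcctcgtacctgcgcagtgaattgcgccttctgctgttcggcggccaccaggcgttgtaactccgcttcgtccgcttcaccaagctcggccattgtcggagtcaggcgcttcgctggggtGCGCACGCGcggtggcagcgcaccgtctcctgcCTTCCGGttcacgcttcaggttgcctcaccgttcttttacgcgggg
Uqcr11: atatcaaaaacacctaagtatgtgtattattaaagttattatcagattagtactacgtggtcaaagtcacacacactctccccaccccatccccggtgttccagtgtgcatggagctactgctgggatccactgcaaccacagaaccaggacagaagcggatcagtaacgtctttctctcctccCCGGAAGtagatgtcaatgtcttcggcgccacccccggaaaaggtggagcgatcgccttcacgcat
Cox7a2: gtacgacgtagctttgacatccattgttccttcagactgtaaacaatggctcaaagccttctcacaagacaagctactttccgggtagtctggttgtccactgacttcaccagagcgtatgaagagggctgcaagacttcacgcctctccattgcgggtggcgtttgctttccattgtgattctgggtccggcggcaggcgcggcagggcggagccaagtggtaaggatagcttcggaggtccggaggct
Atp5e: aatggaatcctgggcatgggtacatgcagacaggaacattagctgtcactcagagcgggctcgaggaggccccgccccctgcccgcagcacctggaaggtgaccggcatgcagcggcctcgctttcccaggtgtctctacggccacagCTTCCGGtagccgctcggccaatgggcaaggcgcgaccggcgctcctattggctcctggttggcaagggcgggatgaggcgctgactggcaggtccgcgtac

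Counting back from the start, the Sdhd window held the NRF1 core with its first printed base at -79 and the ETS core at -46. Uqcr11 held the ETS core at -66 and Atp5e at -102. The windows of Ndufa3 and Cox7a2 held none of these letters, which says nothing about the factors themselves. RefSeq promoters were matched for 63 of the 78 genes. The NRF1 core was found in 9 of them (14.3%), against 9.94% of 6572 named array genes and 5.33% of all 27025 promoters of that length. The ETS core was found in 14 (22.2%), among them Ndufb6, Ndufb7, Ndufs3, Uqcrh and Cox6a1, against 12.3% of array genes and 7.05% of all promoters. The YY1 core AAGATGGCG was found in 0 of 63, against 1% and 0.607%. The 3 motifs do not overlap in the windows printed. A match is a description of letters and not of a bound site.

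In neurospheres against R1 cells, most subunits had the higher signal. The median difference over all 78 genes was 0.77, or 1.70-fold, against 0.16 over all 9840 features on the array. The difference was positive in 69 of 78 genes (88.5%), against 58.3% of features. The neurosphere signal was above all 3 R1 arrays for 53 genes (67.9%), against 34.9% of features, and at least 2-fold above all 3 for 14 genes (17.9%), against 9.7%. It was below all 3 for 6 genes (7.69%), against 26.2% of features, and at least 2-fold below for 0, against 8.23%. The 6 were Ndufa7, Ndufc2, Ndufv1, Cox14, Cox17 and Cox18.

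**Figure D1:**
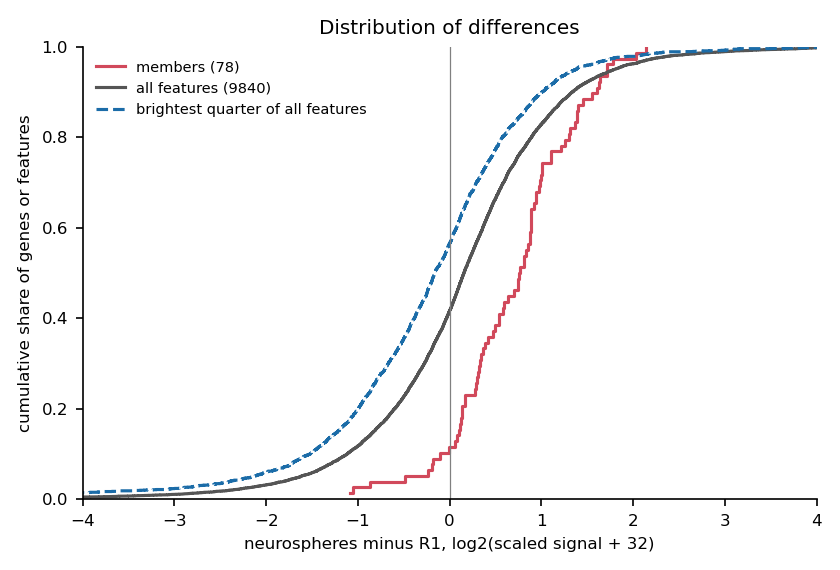
Cumulative share of genes or features (y axis) by the difference of neurospheres minus R1 on the log2 scale (x axis), for the 78 members, all 9840 features and the brightest features by mean signal. The curve of the members lies to the right of both others over most of its length, with medians of 0.77, 0.16 and -0.16.

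These genes are bright, and 55 of the 78 are among the 2460 features with the highest mean signal. In that group the median of all features was -0.16 and 43.4% were positive. The 55 bright members had a median of 0.88, and 49 of them were positive. The 11 members in the next 2460 features had a median of 0.33, against 0.14 for all features there, and all 11 were positive. The 8 members in the group below had 0.64 against 0.42, and the 4 in the dimmest group had 0.26 against 0.21.

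The limma test covered genes that reached the array median on at least 1 array, which 72 of the 78 did. Ndufa12, Ndufs4, Cox6a2, Atp5j2, Cox14 and Cox20 did not. By this test at an adjusted p under 0.05, 27 members rose, 2 fell and 43 did not pass. Over all 6843 features tested, 8.2% rose and 11.9% fell. Without adjustment, p was under 0.05 for 38 members that were higher and 2 that were lower. These unadjusted counts have no share over all features beside them. The test rests on the spread between 2 embryoid body arrays, pooled over features of like mean signal. With 1 of these arrays left out, the 3-group model has no residual degree of freedom, so the remaining R1 arrays were taken as 1 group. That design alone, with all arrays, gave 16 members that rose. Without the aggregation array it gave 12, and without the suspension array 11. Ndufa3, Ndufa8, Ndufc1, Ndufs3, Sdhd, Uqcr11, Uqcrh, Cox7a2, Atp5e and Atp5o kept the call whichever of the 2 was left out. Ndufb7 and Atp5mpl lost it without suspension and Ndufb10 without aggregation, and the other called members lost it whichever was left out. Of those, Ndufa5, Ndufb5 and Atp5md still passed with all R1 arrays as 1 group. Without an intensity trend in the variance only Uqcr11 kept its call, while all 29 called members kept their sign in every alternative in which they were fitted.

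**Figure D2:**
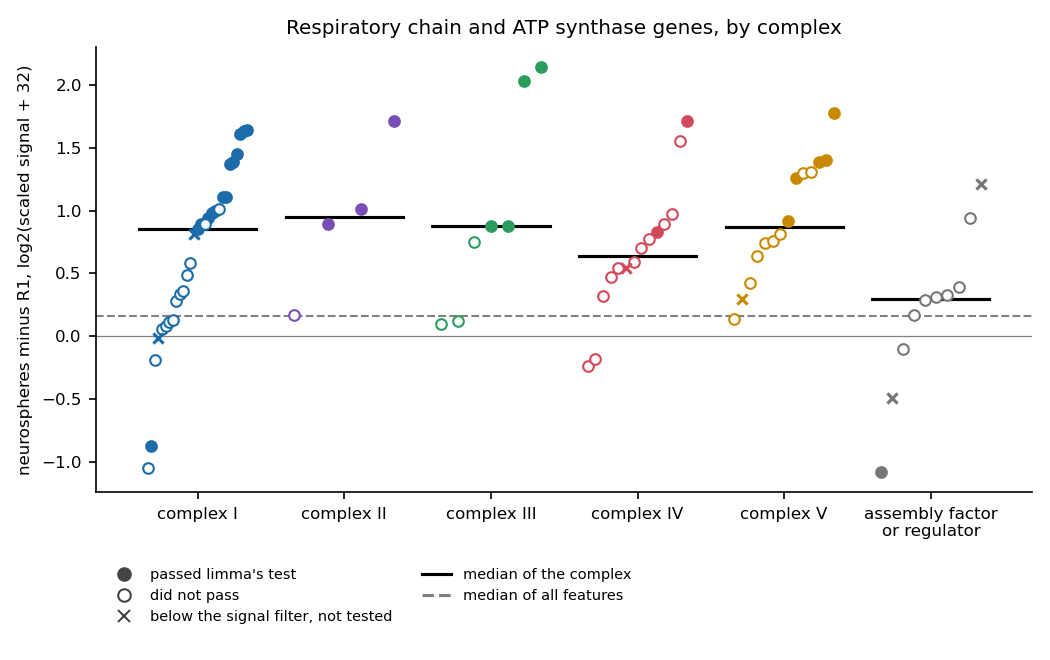
Difference of neurospheres minus R1 (y axis, log2 of scaled signal plus 32) for each of the 78 genes, grouped by complex. Filled points passed limma's test, open points did not and crosses were below the signal filter; black lines are the medians of each complex, 0.85, 0.95, 0.88, 0.64 and 0.87 for I to V and 0.30 for assembly factors, and the dashed line is 0.16 for all features.

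The median difference was 0.85 in complex I, 0.95 in complex II, 0.88 in complex III, 0.64 in complex IV and 0.87 in complex V. The assembly factors and regulators had 0.30. Of the genes tested, 13 of 27 rose in complex I, 3 of 4 in complex II and 4 of 7 in complex III. In complexes IV and V it was 2 of 13 and 5 of 13, where 8.2% of all features tested rose. Of the assembly factors and regulators 0 of 8 tested rose, too few genes to set apart from that share. With all R1 arrays as 1 group the counts for I to V were 8, 1, 2, 1 and 4. In that design, leaving out aggregation gave 5, 1, 2, 1 and 3 and leaving out suspension gave 5, 1, 2, 1 and 2. In the 3-group fit without the intensity trend they were 0, 0, 1, 0 and 0. Whether complexes differ was not tested, since subunits of a complex are not replicates. The gaps between the medians changed with the choice of probe set, while their order stayed the same. The mean of a gene's probe sets, here also those under the signal filter, was 1 alternative. With it the medians were 0.58, 0.95, 0.88, 0.50 and 0.82 for I to V, which places complex I beside complex IV. Without the shared or rare probe set classes they were 0.58, 0.89, 0.88, 0.50 and 0.79. The median of complex IV also depended on which R1 culture was used, at 0.30 against embryoid bodies alone and 0.97 against the adherent array alone. For complex I these were 1.0 and 0.69, and for complex V 0.74 and 0.89.

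**Figure D3:**
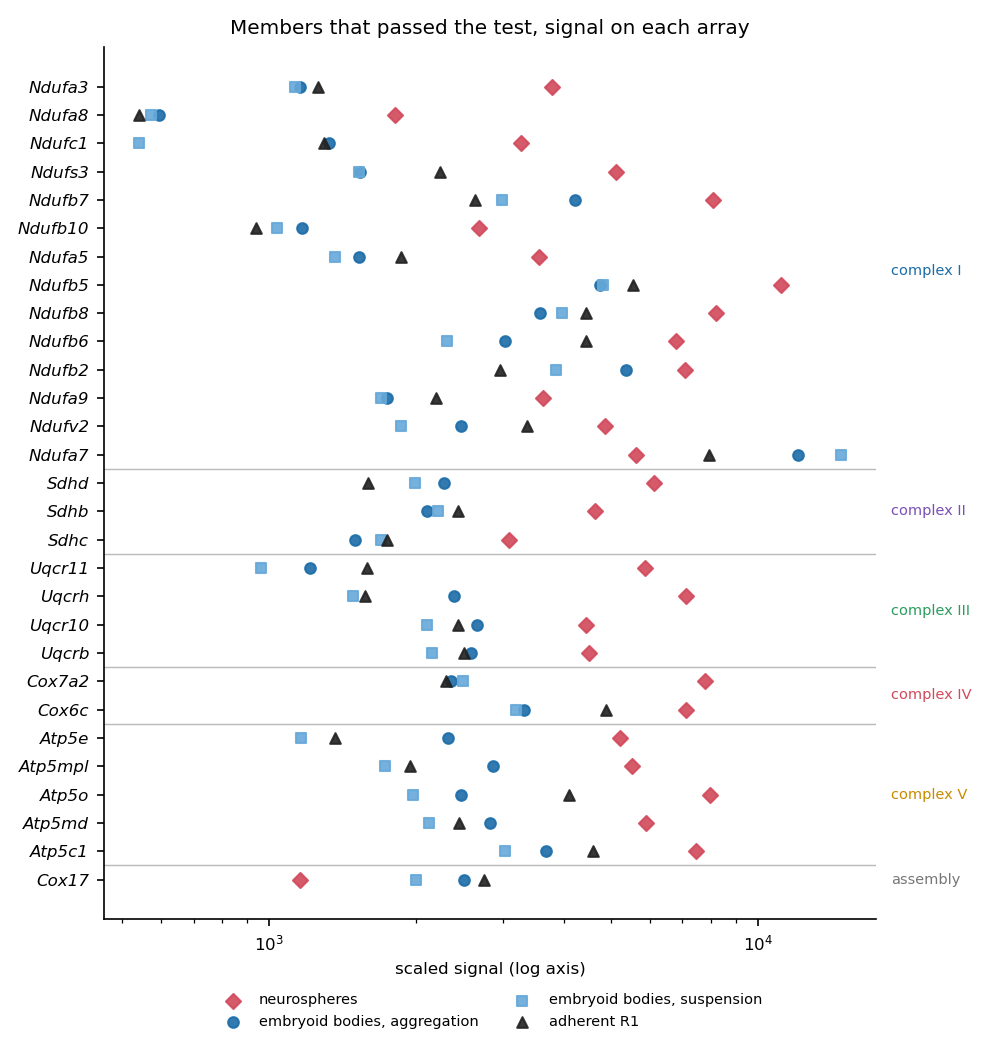
Scaled signal on each of the 4 arrays (x axis, log scale) for the 29 genes that passed the test, by complex and by size of difference. In 27 genes the neurosphere point lies to the right of all 3 R1 points, and in Ndufa7 and Cox17 it lies to the left of them.

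Complex I takes electrons from NADH in a matrix arm and pumps protons in a membrane arm. Ndufa3, a small accessory subunit of the membrane arm, had a signal of 3791 in neurospheres, 1155 and 1127 in embryoid bodies and 1256 in adherent cells. The R1 arrays lay close together and the neurosphere array was 3.02-fold above the highest of them. The difference was 1.64 with a standard error of 0.30, and limma's adjusted p was 6.68e-04. Ndufa8, an accessory subunit on the intermembrane side, had 1808 in neurospheres, 596 and 572 in embryoid bodies and 541 in adherent cells, a difference of 1.63 ± 0.37 (SE). Here too the R1 arrays were close to each other. Ndufc1, a membrane-arm accessory subunit, had 3268 in neurospheres, 1322 and 541 in embryoid bodies and 1292 in adherent cells. The embryoid body arrays were over 2-fold apart, with suspension the lower, and the neurosphere array was above both. Its difference was 1.61 ± 0.40 (SE).

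The core subunits of the matrix arm did not move together. Ndufs3, a core subunit that enters assembly early, had 5117 in neurospheres, 1535 and 1524 in embryoid bodies and 2236 in adherent cells, and rose by 1.45. Ndufv2, which carries an iron-sulfur cluster beside the NADH site, had 4857 in neurospheres, 2471 and 1855 in embryoid bodies and 3358 in adherent cells, and rose by 0.85 (limma's adjusted p 0.0401). Ndufv1, the subunit that binds NADH and flavin, had 5309 in neurospheres, against 6409 and 5402 in embryoid bodies and 6249 in adherent cells. Neurospheres were thus just under the lowest R1 array for Ndufv1, and the difference of -0.19 did not pass. Ndufs1, the largest core subunit with several iron-sulfur clusters, had 1880 in neurospheres, 1412 and 1408 in embryoid bodies and 2077 in adherent cells. It lay within the R1 range, and its difference of 0.13 did not pass. Ndufv1 and Ndufs1 were picked out after their values were seen, as the core subunits that sit beside Ndufv2 and Ndufs3.

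The Ndufb genes code for accessory subunits of the membrane arm. Ndufb7, Ndufb10, Ndufb5, Ndufb8, Ndufb6 and Ndufb2 rose by 1.39, 1.37, 1.11, 1.0, 0.98 and 0.94. Of these, Ndufb5 had 11113 in neurospheres, 4740 and 4815 in embryoid bodies and 5536 in adherent cells, so that the R1 arrays were close and the neurosphere array 2.01-fold above the highest. Ndufb7 had 8081 in neurospheres, 4214 and 2986 in embryoid bodies and 2629 in adherent cells. The other Ndufb genes with a probe set of their own, Ndufb11, Ndufb9 and Ndufb3, had differences of 0.58, 0.34 and 0.28 that did not pass. Dimmer probe sets gave -0.55 for Ndufb6, and -0.89 to 0.84 for Ndufb2, and both genes still passed when the probe sets of a gene were averaged after the signal filter, which left Ndufb6 unchanged at 0.98 and Ndufb2 at 0.88. In the matrix arm, the accessory subunits Ndufa5 and Ndufa9, the last a nucleotide-binding protein, rose by 1.11 and 0.89.

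Ndufa7, an accessory subunit of the matrix arm, was the only complex I gene that fell by the test. Its signal was 5635 in neurospheres, against 12056 and 14768 in embryoid bodies and 7938 in adherent cells. Neurospheres were below every R1 array, and the embryoid bodies were above adherent cells. The difference was -0.87 with a standard error of 0.26 (limma's adjusted p 0.0218), and it was -1.24 against embryoid bodies alone and -0.49 against the adherent array alone. Ndufc2, a partner of Ndufc1 in the membrane arm, had 73.4 in neurospheres, 308 and 295 in embryoid bodies and 112 in adherent cells. The difference of -1.05 was wider but had a standard error of 0.72 at these low signals and did not pass. Apart from Ndufc2, Ndufv1 and Ndufs1, the 12 complex I genes that did not pass or were not tested ranged from -0.01 for Ndufs4 to 1.01 for Ndufa13.

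Complex II, succinate dehydrogenase, is both a citric acid cycle enzyme and an entry point to the chain. Sdhd, a membrane anchor that helps to bind ubiquinone, had a signal of 6112 in neurospheres, 2273 and 1986 in embryoid bodies and 1594 in adherent cells. The neurosphere array stood 2.69-fold above the highest R1 array. The difference was 1.71 ± 0.28 (SE), with limma's adjusted p at 1.98e-04. The iron-sulfur subunit Sdhb had 4630 in neurospheres, 2097 and 2209 in embryoid bodies and 2429 in adherent cells, and rose by 1.01. The second anchor, Sdhc, had 3099 in neurospheres, 1497 and 1690 in embryoid bodies and 1738 in adherent cells, and rose by 0.89. In both genes the 3 R1 arrays were close and neurospheres were above them all. Sdha, the flavoprotein that oxidises succinate, had 330 in neurospheres, 133 and 206 in embryoid bodies and 489 in adherent cells, so neurospheres lay between the R1 cultures, and its difference of 0.17 did not pass.

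Complex III passes electrons from ubiquinol to cytochrome c. Uqcr11, one of its smallest subunits, had the largest rise of all 78 genes. Its signal was 5865 in neurospheres, 1213 and 961 in embryoid bodies and 1586 in adherent cells. The neurosphere array was 3.70-fold above the highest R1 array, the widest gap to the R1 range among the members. The difference was 2.14 ± 0.30 (SE), with limma's adjusted p at 4.30e-05, and the call was kept in all 12 alternative settings. Uqcrh, the hinge protein beside cytochrome c1, had 7128 in neurospheres, 2389 and 1483 in embryoid bodies and 1570 in adherent cells, a rise of 2.03 ± 0.31 (SE). Within embryoid bodies, aggregation was the higher array for both genes, and both arrays stayed well under neurospheres.

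Uqcr10 and Uqcrb, small accessory subunits, each rose by 0.88. Uqcrb had 4513 in neurospheres, 2588 and 2156 in embryoid bodies and 2505 in adherent cells. Uqcrq, another small subunit, was above all R1 arrays at 12654 in neurospheres, against 8340 and 5593 in embryoid bodies and 8257 in adherent cells, but its difference of 0.75 did not pass (limma's adjusted p 0.0616). The large core proteins of the matrix side differed less. Uqcrc1 had 5951 in neurospheres, 5627 and 4234 in embryoid bodies and 6175 in adherent cells, and Uqcrc2 had 2297 in neurospheres, 1851 and 1683 in embryoid bodies and 2600 in adherent cells. Both lay within the R1 range, with differences of 0.12 and 0.10 that did not pass.

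Complex IV, cytochrome c oxidase, hands electrons to oxygen. Its nuclear subunits surround a core coded by mitochondrial DNA, which the name rule does not cover. Cox7a2, the widely expressed form of subunit 7a, had a signal of 7787 in neurospheres, 2356 and 2487 in embryoid bodies and 2293 in adherent cells. The R1 arrays were nearly equal, and neurospheres were 3.13-fold above the highest of them. The difference was 1.71 ± 0.27 (SE), with limma's adjusted p at 1.35e-04. Cox6c, a small membrane subunit, had 7126 in neurospheres, 3313 and 3197 in embryoid bodies and 4881 in adherent cells, and rose by 0.83. Its dimmer probe sets gave -0.67 to 0.69.

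The other 12 complex IV genes did not pass the test or were not tested. Cox5a, which sits on the matrix side, had a difference of 1.55 but low signals, at 326 in neurospheres, 143 and 64.9 in embryoid bodies and 83.2 in adherent cells. The standard error was 0.83. Cox6a1, the form of subunit 6a used outside muscle, had 17368 in neurospheres, 11417 and 9590 in embryoid bodies and 10921 in adherent cells. Neurospheres were above all R1 arrays here as well, but the difference of 0.70 did not pass (limma's adjusted p 0.0609). Cox5b, a zinc-binding subunit, had 5782 in neurospheres, 5111 and 3616 in embryoid bodies and 4988 in adherent cells, a difference of 0.32. Cox7b had 1701 in neurospheres, 1475 and 1614 in embryoid bodies and 2409 in adherent cells, within the R1 range at -0.18.

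Several complex IV subunits exist in forms tied to muscle or testis. Among the muscle forms, Cox6a2 had 104 in neurospheres, 82.3 and 102 in embryoid bodies and 39.3 in adherent cells and was not tested, and Cox7a1 had 119, 52.9, 306 and 38.6 in the same order, with no settled direction. Cox8b, the muscle form of subunit 8 in rodents, had 836 in neurospheres, 678 and 564 in embryoid bodies and 481 in adherent cells, and its difference of 0.59 did not pass. Of 6 striated muscle markers, 3 were tested by limma and none of these passed. Cox6b2, a form known from testis, had 1707 in neurospheres, 797 and 966 in embryoid bodies and 832 in adherent cells. The difference of 0.97 did not pass (limma's adjusted p 0.0532). Cox8c, also known from testis, had 1002 in neurospheres, 1675 and 1397 in embryoid bodies and 921 in adherent cells, and lay within the R1 range at -0.24.

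Of the widely expressed partners, Cox8a had 244 in neurospheres, 178 and 256 in embryoid bodies and 58.3 in adherent cells. Cox6b1 had 473 in neurospheres, 562 and 384 in embryoid bodies and 210 in adherent cells. For both, neurospheres lay within the range of the embryoid body arrays and the adherent array was lowest, and neither difference, 0.89 and 0.54, passed. Cox4i1, the common form of subunit 4, had 460 in neurospheres, 393 and 405 in embryoid bodies and 160 in adherent cells, a difference of 0.77 that did not pass. Its second, dimmer probe set gave -2.21, so the gene has no settled direction. Cox7a2l, a relative of subunit 7a that joins complexes III and IV into supercomplexes, had 2203 in neurospheres, 1547 and 1830 in embryoid bodies and 1659 in adherent cells, a difference of 0.39 that did not pass.

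**Figure D4:**
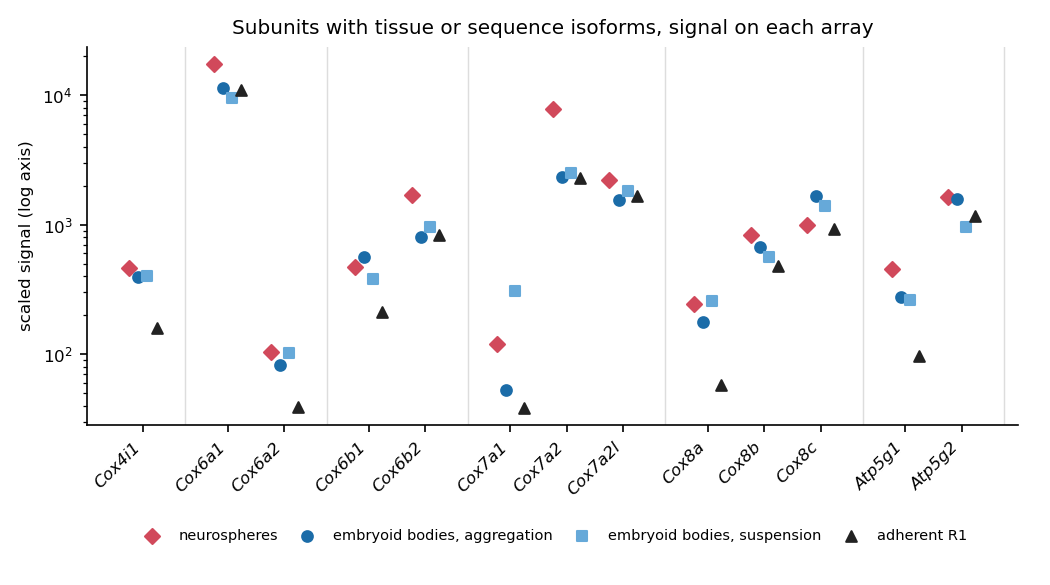
Scaled signal on each of the 4 arrays (y axis, log scale) for 13 genes of subunits that exist in several forms, with vertical lines between subunits. Within Cox7a2 the neurosphere point is well above the R1 points, and in Cox8a, Cox4i1 and Atp5g1, among others, the adherent point is the lowest; heights of different genes are not comparable, since each has its own probes.

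Complex V consists of a catalytic head, a central and a peripheral stalk and a membrane rotor. All 14 of its genes had a positive difference, the lowest being 0.14 for Atp5a1, and 12 were above all 3 R1 arrays. Atp5e, the epsilon subunit of the central stalk, had a signal of 5216 in neurospheres, 2315 and 1162 in embryoid bodies and 1361 in adherent cells. Aggregation was the R1 array nearest to neurospheres, with a 2.25-fold gap between them. The difference was 1.78 ± 0.34 (SE), with limma's adjusted p at 9.54e-04. Atp5o, the peripheral stalk protein that contacts the head, had 7958 in neurospheres, 2470 and 1966 in embryoid bodies and 4105 in adherent cells, and rose by 1.39. Atp5c1, the gamma subunit that turns in the head, had 7464 in neurospheres, 3682 and 3033 in embryoid bodies and 4594 in adherent cells, and rose by 0.92. For both, embryoid bodies were the lower R1 culture.

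Atp5mpl and Atp5md, small membrane proteins bound to the synthase, rose by 1.40 and 1.26. Atp5md had 5898 in neurospheres, 2823 and 2121 in embryoid bodies and 2442 in adherent cells. Atp5a1, the alpha subunit of the head, had 12663 in neurospheres, 13389 and 8900 in embryoid bodies and 12136 in adherent cells. It lay within the R1 range, and its difference did not pass. Atp5l, a membrane subunit, had 10937 in neurospheres, 8201 and 5457 in embryoid bodies and 6174 in adherent cells, a difference of 0.76 that did not pass (limma's adjusted p 0.0584).

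Atp5g1 and Atp5g2 code for the same mature rotor subunit c from separate genes. Atp5g1 had 458 in neurospheres, 279 and 260 in embryoid bodies and 97.2 in adherent cells. The neurosphere array was the highest and the adherent array the lowest, but the difference of 1.31 had a standard error of 0.60 and did not pass. Atp5g2 had 1623 in neurospheres, 1566 and 966 in embryoid bodies and 1171 in adherent cells, a difference of 0.42 that did not pass. Its dimmer probe set gave -0.36.

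Of the 10 assembly factors and regulators, 8 were tested and 0 rose by limma's test, where 8.2% of all features tested rose. Only Sdhaf1 was higher at an unadjusted p under 0.05. Cox17, the copper chaperone that feeds the assembly of complex IV, fell. It had 1153 in neurospheres, against 2503 and 1996 in embryoid bodies and 2751 in adherent cells. Neurospheres were below every R1 array, and the difference was -1.08 ± 0.30 (SE), with limma's adjusted p at 0.0136. The calls of Cox17 and Ndufa7 were lost with all R1 arrays as 1 group, with and without either embryoid body array. Sdhaf1, which helps to load iron-sulfur clusters into complex II, had 1385 in neurospheres, 709 and 977 in embryoid bodies and 596 in adherent cells, a difference of 0.94 that did not pass (limma's adjusted p 0.0785).

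Neighbouring steps of mitochondrial metabolism were taken from lists of genes that the name rule does not hold. Their counts stand beside 8.2% of features that rose and 11.9% that fell, and their medians beside 0.16 over all features. In the citric acid cycle, 2 of 14 genes rose and 0 fell, with a median of 0.60. Citrate synthase, Cs, had 4567 in neurospheres, 1757 and 1866 in embryoid bodies and 1879 in adherent cells, and rose by 1.29, and Fh1, fumarase, rose by 1.15. A list of 14 genes held carriers and pores for ATP, phosphate and metabolites together with creatine kinases. Of these, 12 were tested and 3 rose and 0 fell, with a median of 0.83. The ATP/ADP exchanger Slc25a4 had 10256 in neurospheres, 2388 and 2206 in embryoid bodies and 2259 in adherent cells, and rose by 2.16. The others were Ckb, the brain creatine kinase, at 3.68, and Slc25a11, the oxoglutarate carrier, at 1.13.

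The remaining lists had lower medians. Of 7 genes of the pyruvate dehydrogenase step, 5 were tested, 0 rose and 2 fell, with a median of -0.30. Pdk1, a kinase that inhibits the complex, had 307 in neurospheres, 818 and 2355 in embryoid bodies and 1440 in adherent cells, and fell by 2.09 on the log2 scale. Pdhb, the beta subunit of its first enzyme, fell by 1.23. Of 25 genes of protein import and complex assembly, 24 were tested. Uqcc2 and Timm13 rose by 1.19 and 0.87, and Hspa9 and Tomm70a fell by 1.33 and 1.07, with a median of -0.28, so that the share that rose was near that of all features. Of 16 regulators of mitochondrial content, 13 were tested. Esrra rose by 1.26 and Hif1a, the hypoxia factor, fell by 0.85, with a median of -0.14. Of 13 genes of cytochrome c, ubiquinone synthesis and enzymes linked to ubiquinone, 12 were tested and 0 passed limma's test, with a median of 0.27. The highest mean signal there belonged to Cyc1, the cytochrome c1 subunit of complex III that the name rule does not hold, at 0.67 (limma's adjusted p 0.0755).

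Culture form within R1 cells was compared next, embryoid bodies against the adherent array. These arrays also form the R1 side of the comparison above. By limma's test 0 of 72 members rose and 0 fell, where 0.263% of all features rose and 0.0877% fell. At an unadjusted p under 0.05, 4 members were higher and 7 lower, with no share over all features to set beside them. The counts after adjustment were also 0 without the intensity trend. The median over all 78 genes was -0.05, against 0.22 over all features. Both embryoid body arrays were above the adherent array for 26 genes (33.3%), against 49.4% of features. They were both below it for 30 genes (38.5%), against 26.7%, and for 22 genes the adherent array lay between them.

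**Figure D5:**
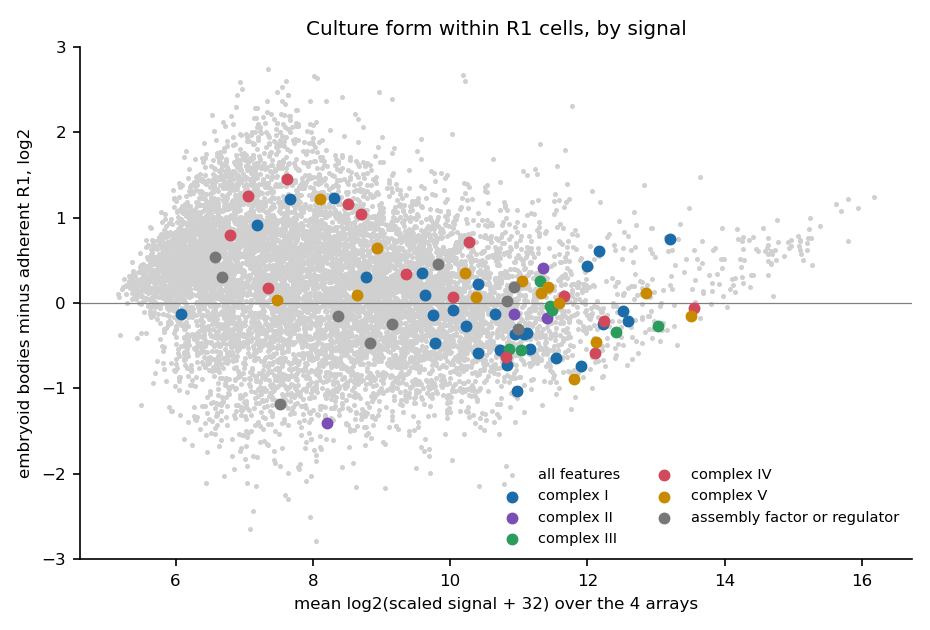
Difference of embryoid bodies minus adherent R1 cells (y axis, log2) against mean log2 signal over the 4 arrays (x axis), with the 78 genes coloured by complex over all features in grey. Members at low signal lie mostly above 0 and bright members mostly below it, with medians of 1.07 for the 8 genes in the second dimmest group and -0.13 for the 55 in the brightest.

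The direction moved with brightness. The 55 members among the 2460 brightest features had a median of -0.13, against -0.02 for all features there. In the next group down the medians were 0.30 over 11 members and 0.10 over all features, then 1.07 over 8 members and 0.36 over all features, and in the dimmest group 0.43 over 4 members and 0.42 over all features. The adherent array had the lowest 10th percentile of scaled signal, 17.4, against 29.5 and 33.7 in embryoid bodies. What this spread of low signals contributes was not tested. By complex the medians were -0.14, -0.15, -0.27, 0.26 and 0.10 for I to V. Those of complexes III and V changed sign with the array, at -0.54 and -0.19 for suspension alone and 0.01 and 0.41 for aggregation alone.

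The widest differences belonged mostly to dim genes. Cox8a, Cox7a1, Ndufa1, Ndufc2 and Atp5g1 had 1.45, 1.26, 1.23, 1.22 and 1.22. For Ndufa1, a membrane-arm subunit of complex I, this was 387 and 408 in embryoid bodies against 152 in adherent cells. At the other end were Sdha, Ndufaf4, Ndufab1, Atp5o and Ndufb6, with -1.40, -1.18, -1.03, -0.89 and -0.74. Ndufab1, the mitochondrial acyl carrier protein, had 1365 and 1422 in embryoid bodies against 2872 in adherent cells, with the embryoid body arrays nearly equal and limma's adjusted p at 0.149. Ndufaf4, a complex I assembly factor, had 195 and 40.8 in embryoid bodies against 260 in adherent cells, so that the embryoid body arrays were further apart than aggregation and adherent. Of the neighbouring lists, only Dhodh, the ubiquinone-linked enzyme of pyrimidine synthesis, passed limma's test here. It had 2536 and 2304 in embryoid bodies against 727 in adherent cells, a difference of 1.69 (limma's adjusted p 0.0266), while neurospheres had 1343.

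The embryoid body arrays differed from each other in an uneven way across complexes. Aggregation had the higher signal in 56 of 78 genes (71.8%), against 46.9% of all features, with a median of aggregation minus suspension of 0.21 against -0.04. In complex V all 14 genes and in complex III all 7 genes were higher in aggregation, with medians of 0.49 and 0.33. In complex I it was 22 of 29 genes, with a median of 0.08. Complex IV was even, at 7 of 14, and in complex II only Sdhd was higher in aggregation. With 1 array on each side there is no test. Within 2-fold were 73 of the 78 genes, most of them bright, against 8371 of all 9840 features. The aggregation and neurosphere arrays were deposited on one scale, with trimmed means of 32.5 and 29.5, and the suspension and adherent arrays on another, at 1485 and 1490. Aggregation was the embryoid body array nearer to neurospheres in 52 of 78 genes (66.7%), in all of complexes III and V, against 47.9% of features. Within the scale they share, the median of neurospheres minus aggregation was 0.60 over the 78 genes, with 65 positive (83.3%), against 0.03 and 51.6% over all features. For complexes I to V it was 0.82, 1.13, 0.74, 0.34 and 0.55. Within the other scale, suspension minus adherent had a median of -0.17 over the 78 genes against 0.25 over all features. What the deposited scales contribute was not tested.

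Agreement between probe sets limits some single genes. Of the 21 members with several probe sets, 13 had the same sign of neurospheres minus R1 in all of them. The other 8 had a probe set of the opposite sign, namely Ndufa1, Ndufb2, Ndufb6, Cox4i1, Cox6c, Cox8c, Atp5d and Atp5g2. Ndufb2, Ndufb6 and Cox6c are the 3 of these that passed the test. For 18 of the 78 genes the probe set belongs to a class whose probes are shared with related sequences or were chosen by relaxed rules, and 60 belong to the plain class.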

How the data were processed

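Per the submitters' processing notes, the authors computed the deposited signal intensity of each probe set with MAS5, in a version and with settings not given in the sources used here. The values are linear, on scales that differ by array, with trimmed means (2% left out at each end) of 29.5 in neurospheres, 32.5 and 1485 in aggregation and suspension, and 1490 in adherent cells. Per the file headers, all arrays were scanned on the same day on separate fluidics modules, so scan and module give no batch to block. The deposited scales pair neurospheres with aggregation and suspension with adherent, and values within each pair are given.

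After leaving out 66 control probe sets, arrays were brought to one trimmed mean, 500, and 32 was added before taking log2, so changes of dim genes are understated. No detection calls were used. Probe sets at or above the array median on at least 1 array were kept, and the brightest per gene was tested (6843 features, 6002 of them named genes, or 9840 features without the filter). A 3-group limma model with an intensity trend (limma 3.58.1, R 4.3.3) compared neurospheres with R1, taken as the average of both R1 cultures, and embryoid bodies with adherent cells. Two-sided p-values were adjusted over all features by the Benjamini-Hochberg method, with calls at 0.05. Only the embryoid bodies gave a residual degree of freedom, 1 (prior 17.34), and the lone neurosphere and adherent samples are taken to vary as they do. Nothing says that the 2 embryoid body arrays were separate cultures, so the p-values reflect only the spread between them, which may be technical. That spread is pooled over features by the intensity trend. A gene's standard error thus follows mostly its mean signal and does not measure how close its own R1 arrays lie. The code was tested on simulated data.

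The members and lists were chosen with earlier results of these data known. Genes were named by rule: every called member, the 2 brightest and the 2 largest differences each way per complex, subunits with several forms, the 5 largest differences each way between R1 cultures, and up to 6 called genes of each neighbouring list, or its 2 brightest. Other genes in the text were chosen after their values were seen. Promoters were matched by symbol to RefSeq tables. Alternatives were the value added before log2, filter, quantile normalization, variance trend, probe set choice, group design and arrays left out.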

Additional observations from a re-analysis of the deposited data

How the results depend on the processing

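Against 27 members that rose, the count was 1 without the intensity trend (Uqcr11), 16 with all R1 arrays as 1 group, 11 to 12 in that same design with 1 embryoid body array left out and 14 against the adherent array alone. It was 27 with 1 or 100 added before log2 or with the mean of a gene's probe sets. That mean held only probe sets past the signal filter, so dimmer ones under it had no part in these calls. The count was 19 without the signal filter, 30 after quantile normalization and 29 against embryoid bodies alone. It was 18 without the shared or rare probe set classes, where 20 of the 29 called members could be fitted and all 20 kept the call. Against 2 members that fell, the count was 1 without the filter (Cox17) and against the adherent array alone (Cox17), and 0 without the trend, with R1 as 1 group, and with either embryoid body array left out (0 to 0). Over all features, 561 rose and 816 fell, against 219 and 245 without the trend, and 269 and 400 or 329 and 451 without aggregation or suspension. With R1 as 1 group they were 381 and 566. The share of all features that rose was 4.79% without the filter, 7.7% after quantile normalization and 8.31% without the shared or rare classes. It was 7.28% against embryoid bodies alone and 6.77% against the adherent array alone. With 1 or 100 added it was 7.82% or 8.67%, and with the mean of probe sets 7.5%. The share that fell was 5.97% without the filter and 10.6% against the adherent array alone.

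The median difference of the members moved to 0.59 with the mean of probe sets, here also those under the signal filter, and to 0.56 without the shared or rare classes. It was 0.60 against aggregation alone, the array deposited on the scale of neurospheres, an alternative chosen after seeing the data. It was 0.63 to 0.84 with an embryoid body array left out. For embryoid bodies against adherent cells the median of -0.05 was 0.01 with the mean of probe sets, and -0.17 and 0.04 without aggregation and without suspension, and the counts were 0 in all 7 alternatives tested.

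Of the genes named by rule, those whose direction turned had not passed the test. Against the adherent array alone these were Sdha at -0.53, Ndufaf4 at -0.30, Uqcrc2 at -0.18, Uqcrc1 at -0.05, Ndufab1 at -0.03 and Cox8c at 0.12, and of other members Ndufs1 at -0.14 and Ndufb9 at -0.02. Against embryoid bodies alone they were Ndufa1 at -0.53, Cox7a1 at -0.16 and Cox7b at 0.14, and of other members Ndufa10 at -0.08 and Ndufs4, which was not tested, at 0.05. Ndufa1 was also -0.16 after quantile normalization, -0.12 with R1 as 1 group and -0.04 with the mean of probe sets, where Cox4i1 was -0.72. Atp5g2 was -0.36 without the shared or rare classes. With either embryoid body array left out, Atp5a1 ranged over -0.01 to 0.28, Cox7a1 over -0.03 to 0.97 and Ndufaf4 over -0.12 to 0.70. The cause of these changes was not tested.

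Counts of members outside the R1 range under other settings were added after seeing the data. Above all R1 arrays there were 54 after quantile normalization, 38 without the shared or rare classes, and 56 to 58 with an embryoid body array left out. Leaving out the classes removes some members, and leaving out an array leaves fewer R1 arrays to exceed. These counts have no share over all features beside them, so they cannot be set against a background. No paired analysis was possible because the groups share fewer than 2 replicate numbers.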

Other observations

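A further 11 probe sets carry a respiratory symbol together with a pseudogene or near-identical copy, and could not be assigned to 1 gene. The probe set shared by Ndufs5, an accessory subunit of complex I, and Ndufs5-ps had a signal of 2718 in neurospheres, 996 and 916 in embryoid bodies and 1427 in adherent cells. It rose by 1.20 in limma's test (adjusted p 0.0104). Both probe sets shared by Cox7c, a small subunit of complex IV, and Gm12338 rose, by 0.82 and 1.04. The one with 0.82 had 37891 in neurospheres, 22384 and 25586 in embryoid bodies and 19127 in adherent cells. The 2 probe sets of Ndufs6, which also match Ndufs6b, did not pass at 0.42 and 0.53, and that of Ndufa11 and Ndufa11b did not pass at 0.37. Those of Ndufab1 with Ndufab1-ps and of Ndufb4 with Ndufb4b and Ndufb4c did not pass either, at 0.82 and 0.08. Those of Atp5md with Gm35857 and of Cox14 with Gm29733 were not tested.

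The copies of Atp5c1 gave different values by probe set. The probe set shared with Atp5c1-ps had 6625 in neurospheres, 6437 and 5097 in embryoid bodies and 6528 in adherent cells, a difference of 0.11 that did not pass, while the Atp5c1 probe set with a single symbol rose by 0.92.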
